A study of Homo sapiens with 4 samples.

Results

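The genes described here are 10 genes of the megakaryocyte lineage, measured by RNA-seq in K562 cells before and after hemin treatment. They were taken as a list of symbols (ITGA2B, ITGB3, GP1BA, GP9, CD9, THBS1, PLEK, TUBB1, FLI1 and RUNX1), each symbol matched to the gene name in the deposited tables and joined by gene ID. Each symbol matched 1 gene ID, so the list covers 10 of the 61498 genes in the files. Of these, 8 had a count in at least 1 library and 6 passed the filter on low counts that precedes the test: RUNX1, THBS1, CD9, GP1BA, TUBB1 and ITGA2B. ITGB3 and PLEK had too few counts for the test, and GP9 and FLI1 had none.

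K562 is a human erythroleukemia line that can be pushed toward the red cell state by hemin, the oxidised form of the haem group. The data hold 2 libraries of untreated cells and 2 libraries of cells kept in 50 µM hemin for 108 h, all from poly(A) RNA of the same line. Expected counts, the authors' estimates of reads per gene, summed to between 7455447 and 8241534 per library. The sources do not say whether the libraries of a condition came from separate cultures, so the p-values below measure the spread between these libraries, which may be technical.

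Megakaryocytes are the bone marrow cells that shed platelets. They share a precursor with red cells, and GATA1, TAL1 and NFE2 act in both lineages, whereas FLI1 and RUNX1 are known for directing the megakaryocyte side. A maturing megakaryocyte makes the platelet receptors for fibrinogen (the integrin of ITGA2B and ITGB3) and for von Willebrand factor (the complex of GP1BA, GP1BB, GP9 and GP5), fills its granules with proteins such as thrombospondin, and builds a microtubule coil from a beta-tubulin of its own, TUBB1.

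In these libraries RUNX1 was the most abundant of the 10 genes and rose after hemin, by 1.46-fold in counts. THBS1 fell by 1.37-fold in counts, but its mean level per length was higher after hemin. The other 4 tested genes, CD9, GP1BA, TUBB1 and ITGA2B, did not pass the threshold of an adjusted p of 0.05. So 1 of the 6 tested genes was called higher and 1 lower by edgeR's quasi-likelihood test, beside 7.00% of all 14458 tested genes called higher and 7.14% called lower (14.1% in either direction). Of those calls 49.5% were higher, and 34.9% when library size alone set the scale. With 6 genes tested, these counts do not set the list apart from that background. Their median log2 fold change was -0.31, against -0.0048 over all tested genes. In bulk RNA, fewer cells of a type and less RNA per cell cannot be told apart.

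The levels can be compared between genes per length, in TPM (transcripts scaled by length and to a fixed library total). In untreated cells the order of mean TPM ran from RUNX1 at 22.2 through THBS1 at 8.59, CD9 at 5.94, ITGA2B at 3.32, TUBB1 at 2.45 and GP1BA at 2.39 to ITGB3 at 0.29. RUNX1 and ITGB3 stood clear of their neighbours in this order, whereas the ranges of THBS1 and CD9, of CD9 and ITGA2B, of ITGA2B and TUBB1, and of TUBB1 and GP1BA overlapped. After hemin the order was RUNX1, THBS1, CD9, GP1BA, ITGA2B, TUBB1, ITGB3 and PLEK, and the first 3 were then separated from each other and from the rest. Against all tested genes, RUNX1 lay above 64.1% by mean TPM, THBS1 above 39.0%, CD9 above 28.8%, and ITGA2B, GP1BA and TUBB1 above only 14.7%, 12.7% and 10.4%.

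**Figure D1:**
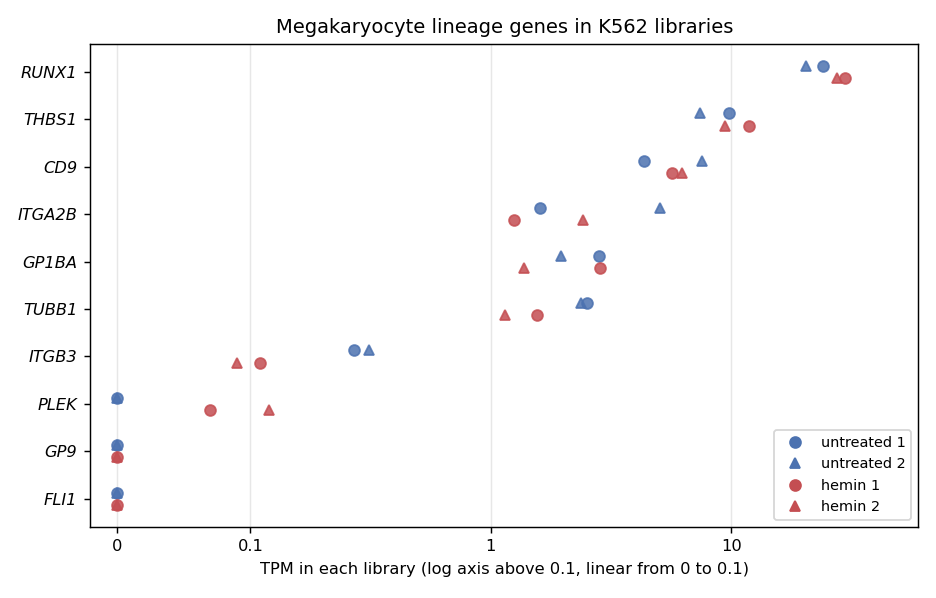
TPM of the 10 genes (rows) in each library (points; circles are replicate 1 and triangles replicate 2, blue untreated and red hemin), on an axis that is logarithmic above 0.1 TPM and linear below. RUNX1 sits alone between 20.4 and 29.7 TPM, 5 genes lie between 1.14 and 11.9 TPM, and ITGB3, PLEK, GP9 and FLI1 lie at or below 0.31 TPM.

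The label of the list was set against other markers of the lineage. Beside GP9 and FLI1, the platelet products PF4, PPBP, VWF, SELP, F5, F13A1, P2RY12, CLEC1B and TREML1 had a count of 0 in all 4 libraries, which allows up to 3 counts per library, or 0.364 to 0.402 CPM (counts scaled to a fixed library total). The 13 markers of erythroid K562 cells all had counts, with a summed level of 6528 to 6671 TPM in untreated and 7915 to 8434 TPM in hemin-treated libraries, against 45.0 to 45.4 and 48.3 to 53.0 TPM for the 10 megakaryocyte genes. The embryonic and alpha globins HBA1 (log2 fold change 0.80, edgeR adjusted p = 4.65e-05), HBZ (0.70, 1.51e-04) and HBE1 (0.41, 4.45e-04) rose with hemin in the same fit, ALAS2, the first enzyme of haem synthesis in red cells, fell (-0.25, adjusted p = 0.0252, lost without 3 of the libraries, at most 0.147), and HBG2 at 1510 and 1683 TPM did not pass. HBA1 has a near-identical copy, so its reads were divided with some doubt. The genes described here are thus lineage genes read in cells with erythroid markers. The platelet products at 0 were picked after their values were seen, and others, such as GP1BB at 44.7 TPM and GP6 at 3.27 TPM on average, were detected.

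Of the regulators, RUNX1 encodes a runt-domain transcription factor that binds DNA with its partner CBFB and is needed for blood stem cells and for platelet formation. The gene (ENSG00000159216) lies on the minus strand of chromosome 21 from 34787801 to 36004667 (GRCh38) and shares no exon with another gene of the annotation. The start region that RefSeq lists for it lies inside these bounds, so it is a start within the gene and not at its outer end. This window, in GRCh38.p14 at chr21:34888650-34888949 on the minus strand, is printed because RUNX1 passed the test. Capitals mark the letters GATA, the ETS core GGAA and the RUNX core TGTGG on either strand, where motifs can abut.
RUNX1: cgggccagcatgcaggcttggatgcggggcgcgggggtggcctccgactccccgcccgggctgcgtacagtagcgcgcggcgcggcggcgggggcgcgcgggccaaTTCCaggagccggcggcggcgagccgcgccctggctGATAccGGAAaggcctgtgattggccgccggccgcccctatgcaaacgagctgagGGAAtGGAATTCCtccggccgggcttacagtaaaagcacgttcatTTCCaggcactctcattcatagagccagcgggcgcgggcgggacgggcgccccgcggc
The 300 bases hold 1 GATA motif, 6 ETS cores and no RUNX core, and 72% of them are G or C. Among 35116 such windows of all genes, 49.7% hold the GATA letters, 95.5% the ETS core and 51.4% the RUNX core, so a match by itself says little. It is a description of the sequence, not of binding.

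RUNX1 had 371 and 354 expected counts in the untreated libraries and 510.04 and 558 in the hemin-treated ones. Scaled to library size these were 47.52 ± 0.047 and 67.80 ± 0.12 CPM (mean ± SD, n = 2 each), so both hemin libraries were high. The groups did not overlap, as for 57.8% of all tested genes, and an SD from 2 libraries is a poor guide to the spread. The log2 fold change was 0.55 ± 0.065 (SE), with an adjusted p of 0.0010 (edgeR's quasi-likelihood test, adjusted by Benjamini and Hochberg's method), the 149th smallest p of the 14458 tested genes. By size of the change it was the 519th largest increase. From pooled counts the ratio of hemin to untreated was 1.43, with an exact 95% interval of 1.297 to 1.570 that covers counting error only.

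Per length the rise was smaller. RUNX1 measured 24.05 and 20.43 TPM in untreated and 29.68 and 27.5 TPM in hemin-treated libraries, still without overlap. The effective length, which the authors' quantification derived from the mix of 18 annotated transcripts, was 2749 and 3202 bases in untreated and 3182 and 3420 bases in treated libraries. On log2(TPM + 1) the change was 0.35 and missed the threshold in limma (adjusted p = 0.229), whereas the call held in all 12 alternatives that used counts.

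The relatives and partner of RUNX1 were read beside it. CBFB, the shared partner of the runt family, had 838 and 790 expected counts in untreated and 920 and 919 in hemin-treated libraries, with a log2 fold change of 0.17 and an adjusted p of 0.0798. RUNX2, known for bone formation, had 14 and 13 counts, then 17 and 31 (log2 fold change 0.81, adjusted p = 0.200). RUNX3 had a single count in 1 hemin library. Most counts of the runt family were thus those of RUNX1, and neither the other family members nor the partner passed the test.

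FLI1, an ETS-family factor that switches on the fibrinogen and von Willebrand receptor genes, had no count in any library. The gene (ENSG00000151702, chromosome 11, 128686535 to 128813267, plus strand) shares exon bases on the opposite strand with the long non-coding RNAs SENCR and ENSG00000245008, which had no count either. Its closest relative ERG had 1 count in 1 hemin library and ETS1 had none. Other ETS factors were present. ELF1 rose from 715 and 686 to 780 and 920 counts (log2 fold change 0.27, edgeR adjusted p = 0.0160, at most 0.0888 with a library left out), and ETV6 went from 80 and 81 to 95 and 103 counts without passing the test (0.29, adjusted p = 0.225).

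Both chains of the fibrinogen receptor were scarce. ITGA2B (ENSG00000005961, chromosome 17, 44372180 to 44389649, minus strand) encodes the alpha chain, also known as CD41, one of the earliest surface markers of the lineage. It had 15 and 27 counts in untreated and 10 and 9 counts in hemin-treated libraries. Both treated values lay below both untreated values, and the untreated pair itself differed by about as much as the group means did. The log2 fold change was -1.15 ± 0.45 (SE), with an unadjusted p of 0.0303 and an adjusted p of 0.123 in edgeR's test, so it was not called. It stayed under 0 in all 12 alternatives that gave an adjusted p, between -1.54 and -0.52, and passed the threshold in none of them, and DESeq2 gave -1.15 without an adjusted p.

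In TPM the libraries of ITGA2B overlapped between conditions, at 1.6 and 5.04 untreated and 1.25 and 2.41 treated. The effective length spread from 630 to 1669 bases over the 4 libraries, for a gene with 10 annotated transcripts. The pooled counts, 42 against 19, give a ratio of 0.438 with a counting interval of 0.241 to 0.770.

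ITGB3 (ENSG00000259207, chromosome 17, 47253827 to 47313743, plus strand) encodes the beta chain, which also pairs with ITGAV. It had 9 and 10 counts in untreated and 1 and 3.11 in hemin-treated libraries, too few to pass the filter. All of these values are small, and the treated pair lay below the untreated pair. The pooled counts were 4.91 times higher in untreated than in treated cells, with an exact counting interval of 1.63 to 19.8, and without the filter edgeR gave a log2 fold change of -2.18 (adjusted p = 0.0475). The other fits that held ITGB3 did not pass, with -1.68 without hemin library 1 (adjusted p = 0.361), -3.05 without hemin library 2 (0.160) and -2.26 in DESeq2, which gave no adjusted p. ITGB3 shares 2266 exon bases on the same strand with ENSG00000259753, to which 2.45 counts were assigned in the second hemin library and none elsewhere.

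The integrins that K562 cells did express were other chains. ITGB1, the most widely used beta chain, had 2515 and 2538 counts in untreated and 1974 and 2213 in treated libraries and fell (log2 fold change -0.28, edgeR adjusted p = 0.0051). ITGA5, its fibronectin-binding partner, fell from 798 and 751 to 561 and 588 counts (-0.44, adjusted p = 0.0014). ITGAV, the other partner of ITGB3, fell from 573 and 565 to 373 and 406 counts (-0.55, adjusted p = 9.13e-04). These integrin calls held with each library left out in turn. ITGB5 fell from 344 and 293 to 221 and 256 counts (-0.42, adjusted p = 0.0144), a call that was lost without untreated library 1 (adjusted p = 0.0945).

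The von Willebrand factor receptor was uneven. GP1BA (ENSG00000185245, chromosome 17, 4932277 to 4935023, plus strand) encodes the ligand-binding chain. It had 39 and 26 counts in untreated and 38 and 20 in hemin-treated libraries, so the libraries of a condition differed from each other by more than the conditions did. The log2 fold change was -0.16 ± 0.37 (SE; adjusted p = 0.825 in edgeR's test), and 2 SE on either side reach from -0.90 to 0.58. Its sign turned when untreated library 1 (0.12) or hemin library 2 (0.28) was left out. GP1BA levels were 2.82 and 1.95 TPM untreated and 2.85 and 1.37 TPM treated. It shares 97 exon bases with CHRNE on the opposite strand, which had at most 3 counts.

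GP9 (ENSG00000169704, chromosome 3, 129060779 to 129062406, plus strand), a small subunit that the complex needs to reach the surface, had no count in any library. GP5, another subunit, had 1 count in 1 untreated library. GP1BB, which is bonded to GP1BA, went from 161 and 194 to 256 and 302 counts and was called higher (log2 fold change 0.64 ± 0.12, edgeR adjusted p = 0.0078; highest adjusted p with a library left out 0.0498). GP1BB shares exons on the same strand with SEPTIN5 (1343 and 1372 counts untreated, 1345 and 1529 treated) and with ENSG00000284874 (330 and 185, then 236 and 241), neither of which passed the test. The posterior SD of its count, the files' measure of how shared reads were divided, was 10.5% of the count, so the GP1BB value is uncertain.

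CD9, a tetraspanin that is abundant on megakaryocytes and platelets and associates with integrins, did not pass the test. CD9 (ENSG00000010278, chromosome 12, 6199715 to 6238271, plus strand) had 29 and 49 counts in untreated and 40.08 and 42 in hemin-treated libraries, and the treated pair lay inside the untreated range. Its log2 fold change was 0.06 ± 0.29 (SE; adjusted p = 0.922 in edgeR's test), and 2 SE on either side span -0.53 to 0.65. The value went to -0.30 without untreated library 1 and to 0.53 without untreated library 2. Mean levels were 5.94 ± 2.25 TPM untreated and 5.96 ± 0.40 TPM treated (SD, n = 2 each).

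Among other tetraspanins, CD63, CD81 and CD151 were more abundant than CD9, while CD37, CD53 and CD82 had lower mean levels (4.12, 1.75 and 1.26 TPM over the 4 libraries). CD63 measured 232 TPM in untreated and 234 TPM in treated cells, CD81 136 and 134 TPM, and CD151 87.2 and 82.8 TPM. None of CD63, CD81 and CD151 passed the test. IGSF8, an immunoglobulin-family protein that binds CD9 and CD81 on the surface, fell from 211 and 186 to 127 and 148 counts (log2 fold change -0.54, edgeR adjusted p = 0.0105), and this call was lost without untreated library 1 (adjusted p = 0.0621).

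THBS1 encodes thrombospondin 1, a large adhesive glycoprotein of platelet alpha granules and of the matrix. The gene (ENSG00000137801) lies on chromosome 15 from 39581079 to 39599466 on the plus strand. Its start region in RefSeq (GRCh38.p14, chr15:39580829-39581128, plus strand) is shown as the other tested gene past the threshold, with the same motifs in capitals.
THBS1: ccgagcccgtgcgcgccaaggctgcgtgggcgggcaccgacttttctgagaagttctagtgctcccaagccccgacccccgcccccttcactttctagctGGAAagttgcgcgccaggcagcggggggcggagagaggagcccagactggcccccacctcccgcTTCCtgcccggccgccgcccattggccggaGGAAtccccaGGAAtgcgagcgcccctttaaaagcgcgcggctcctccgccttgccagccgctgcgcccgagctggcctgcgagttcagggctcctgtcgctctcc
This window holds 4 ETS cores and neither a GATA motif nor a RUNX core, and 70% of it is G or C. RefSeq windows were matched for 7 of the 10 genes, in 10 windows, of which 6 hold the GATA letters, 10 the ETS core and 4 the RUNX core.

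THBS1 had 281 and 268 expected counts in untreated and 198 and 205 in hemin-treated libraries. In CPM this was 35.98 ± 0.14 against 25.59 ± 1.01 (SD, n = 2 each), with both treated libraries low and no overlap. The log2 fold change was -0.45 ± 0.085 (SE; adjusted p = 0.0090 in edgeR's quasi-likelihood test), the 673rd smallest p among the tested genes. The pooled ratio was 0.711, with a counting interval of 0.624 to 0.810. The call held with each library left out in turn (highest adjusted p 0.0477), and in DESeq2 the same change, -0.44, had an adjusted p of 0.0528.

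On the length-scaled measure the direction turned. THBS1 measured 9.79 and 7.38 TPM in untreated and 11.85 and 9.44 TPM in hemin-treated libraries, so the groups overlapped and the treated mean was the higher (10.6 ± 1.70 against 8.59 ± 1.70 TPM). The authors' effective length for the gene was 5123 and 6697 bases untreated and 3089 and 3659 bases treated. It is an average over 8 annotated transcripts weighted by their estimated shares, and its mean changed by -0.81 on the log2 scale. Only 0.858% of tested genes had a change of effective length that large, and only 1.28% of the called genes had counts and TPM moving in opposite directions. In limma on log2(TPM + 1) the THBS1 change was 0.28 (adjusted p = 0.513). The counts and the TPM thus give opposite directions for THBS1, and the fall is stated here for counts alone.

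**Figure D2:**
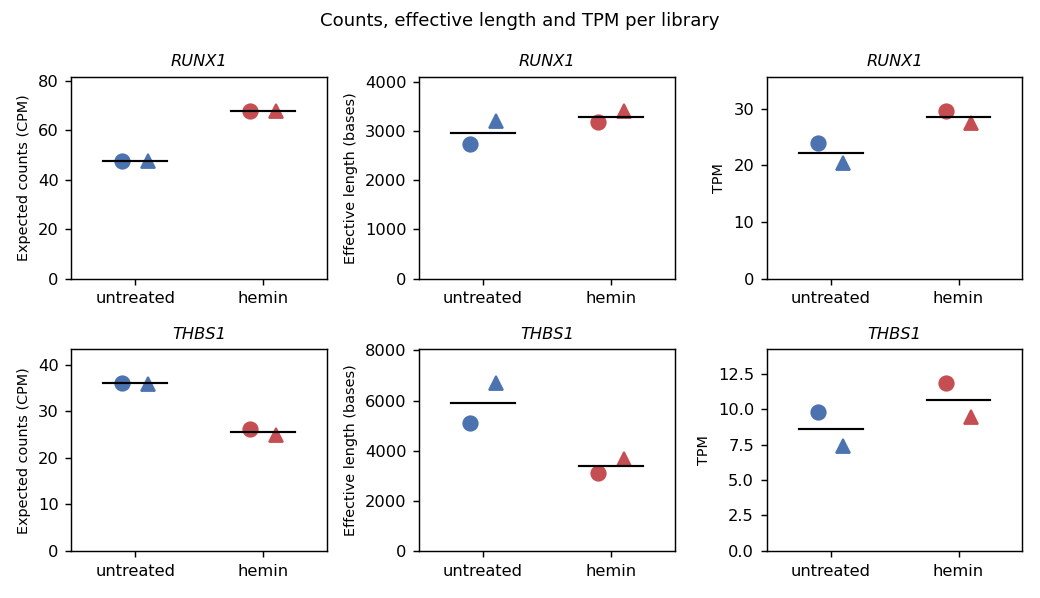
Expected counts in CPM, effective length in bases and TPM (columns, each axis from 0) of RUNX1 and THBS1 (rows) in each library, circles replicate 1 and triangles replicate 2, with a bar at the mean of 2 libraries. For RUNX1 both CPM and TPM were higher in the hemin libraries without overlap, whereas for THBS1 the CPM fell from 35.98 to 25.59, the effective length went from 5910 to 3374 bases and the mean TPM was higher after hemin.

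THBS1 also shares 411 exon bases with THBS1-AS1 and 448 with FSIP1, both on the opposite strand. Their counts were at most 3.78 per library, and THBS1 summed with them gave -0.47 (adjusted p = 0.0080). Of its relatives, THBS3 had 69 and 67 counts untreated and 48 and 44 treated (log2 fold change -0.57, adjusted p = 0.0867). Among receptors for thrombospondin 1, CD36 fell from 730 and 672 to 446 and 508 counts (-0.56, edgeR adjusted p = 6.67e-04) and kept its call without each library, whereas CD47 had 414 and 405, then 395 and 404 counts (-0.04) and did not pass.

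PLEK encodes pleckstrin, the main substrate of protein kinase C in platelets. It had no count in the untreated libraries and 1 and 2 counts in the treated ones, which is at or under the limit of 3 counts that a 0 allows, so no fold is given. PLEK (ENSG00000115956) lies on chromosome 2 from 68365282 to 68397453 on the plus strand. Its relative PLEK2 had 1 count in 1 untreated library.

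TUBB1 (ENSG00000101162, chromosome 20, 59019429 to 59026654, plus strand) encodes the beta-tubulin of the platelet microtubule coil. It had 46 and 42 counts in untreated and 27 and 22 in hemin-treated libraries, and both treated values were low. The log2 fold change was -0.85 ± 0.27 (SE), with an unadjusted p of 0.0106 and an adjusted p of 0.0638 in edgeR's test. It passed the threshold in 3 of 14 alternatives and is not counted as a fall here. In TPM it measured 2.51 and 2.38 untreated and 1.55 and 1.14 treated, without overlap.

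TUBB1 shares 1180 exon bases with ATP5F1E on the opposite strand, a subunit of the mitochondrial ATP synthase with 502 to 591 counts per library. The paper's methods list no strand option for the quantification and do not state whether it used strand. Reads of the pair therefore cannot be told apart with certainty. ATP5F1E itself had a log2 fold change of -0.11 (adjusted p = 0.384), and TUBB1 summed with it gave -0.15 (adjusted p = 0.191), a sum made up mostly of ATP5F1E. The part of ATP5F1E reads in the TUBB1 value was not tested.

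The common beta-tubulins were at a much higher level than TUBB1. TUBB measured 769 TPM in untreated and 808 TPM in treated cells and TUBB4B 197 and 193 TPM, without a call, as for TUBB6 and TUBB2A. TUBB2B fell from 349 and 382 to 235 and 242 counts (log2 fold change -0.62, edgeR adjusted p = 0.0036). TUBB4A, known mainly from brain, fell from 26 and 24 to 5.19 and 6.51 counts (-2.05, adjusted p = 0.0114), a call lost without either untreated library (highest adjusted p 0.0826). Beta-tubulin genes are alike in sequence, and the posterior SD was 9.09% of the count for TUBB4A and 4.77% for TUBB2B.

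**Figure D3:**
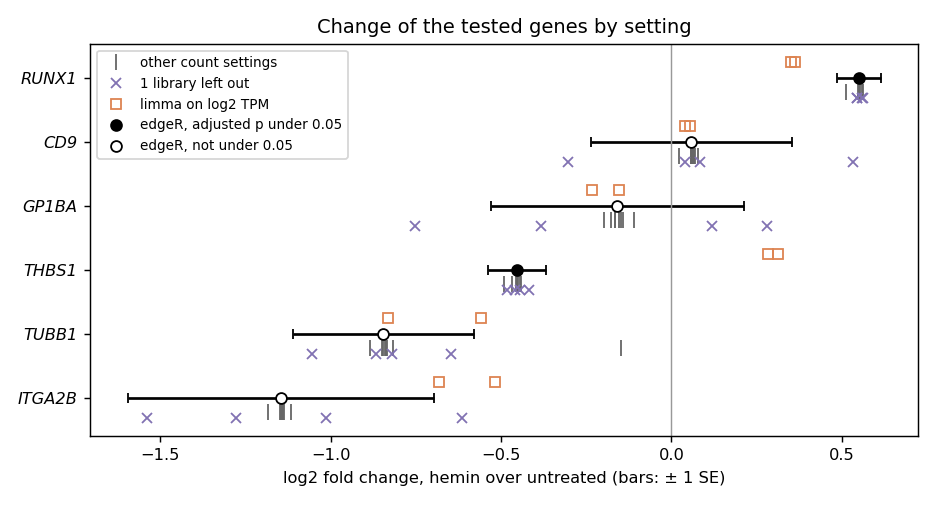
Log2 fold change of hemin over untreated for the 6 tested genes: black circles with ± 1 SE are edgeR's values (filled, adjusted p under 0.05), grey ticks other count settings, crosses fits with 1 library left out, and orange squares limma on log2 TPM. RUNX1 stays above 0 in every setting, THBS1 is below 0 in all count settings and above 0 in TPM, and CD9 and GP1BA cross 0 when a library is left out.

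The wider megakaryocyte and platelet programme was read from 6 lists of 143 further genes. Of these, 128 had a count, 9 were called higher and 15 lower, and 82 were tested and did not pass (median log2 fold change -0.01). That is 22.6% called, beside 14.1% of all tested genes, and 11 of the 24 calls held with every library left out in turn. The lists were written with results of these data known.

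Adhesion receptors leaned lower, with 1 call higher (GP1BB) and 5 lower of 10 tested, and a median log2 fold change of -0.36. The falls were those of CD36, ITGAV, ITGA5 and ITGB1 given above, and of PTPRJ, a phosphatase that acts on Src kinases in platelets. PTPRJ fell from 92 and 81 to 46 and 53 counts (-0.81, edgeR adjusted p = 0.0156), and lost its call without either untreated library (highest adjusted p 0.0817). GP6, the collagen receptor of platelets, had 24 and 27 counts, then 35 and 41, and did not pass (0.56, adjusted p = 0.197).

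Among agonist receptors 5 of 12 were tested and 1 was called. F2R, the main thrombin receptor, fell from 263 and 277 to 143 and 186 counts (log2 fold change -0.72, edgeR adjusted p = 0.0038) and held without each library. TBXA2R, the thromboxane receptor, was the most abundant at 20.1 TPM untreated and 14.5 TPM treated and did not pass (-0.25, adjusted p = 0.133).

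Of 26 granule genes, 8 had no count, 15 were tested and 3 fell. FN1, fibronectin, fell from 4105 and 3906 to 2168 and 2315 counts (log2 fold change -0.85, edgeR adjusted p = 1.64e-05). TGFB1, a growth factor stored in alpha granules, fell from 1620.03 and 1520 to 1123 and 1214 counts (-0.43, adjusted p = 4.88e-04), although it shares exon bases on the opposite strand with HNRNPUL1, a far more abundant gene. SPARC, a matrix protein, fell from 266 and 256 to 188 and 198 counts (-0.44, adjusted p = 0.0105) and lost its call without untreated library 2 (0.0555). APLP2 and TIMP1, the most abundant of the list, did not pass.

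The transcription regulators of the lineage were largely present, with 25 of 27 tested, and gave 4 calls higher and 1 lower. MYB, a factor of dividing progenitors, rose from 1176 and 1056 to 1565 and 1709 counts (log2 fold change 0.55, edgeR adjusted p = 2.48e-04). LMO2, the bridging protein of the TAL1 and GATA1 complex, rose from 505 and 551 to 654 and 728 counts (0.38, adjusted p = 0.0097), and ELF1 and LYL1 rose by less. NFE2, a factor of late megakaryocytes and of globin genes, fell from 547 and 566 to 438 and 467 counts (-0.31, adjusted p = 0.0185). Only MYB among these 5 kept its call without each library, since LMO2 lost it without untreated library 1 (0.0579), NFE2 without untreated 2 or hemin 2 (at most 0.106), and ELF1 and LYL1 in 3 and 4 of the 4 fits (at most 0.0888 and 0.134). GATA1 measured 117 TPM in untreated and 118 TPM in treated cells and did not pass (0.04, adjusted p = 0.689).

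The lists of the cytoskeleton and of signalling were called in shares of 14.8% and 16.7%, near the 14.1% of all tested genes. Of 27 tested cytoskeleton and integrin activation genes, CFL1 and DIAPH1 were called higher by small amounts (0.17 and 0.13) and TPM1 and ARPC1B lower (-0.99 and -0.22), and each lost its call without at least 2 of the libraries (adjusted p up to 0.101, 0.148, 0.135 and 0.136). PFN1, at 600.0 TPM untreated and 634 TPM treated, was not called. Of 24 tested signalling and secretion genes, LYN was called higher and PTGS1, BTK and RAB27A lower, while the abundant STXBP2 was not called. PTGS1, the cyclooxygenase that makes the precursor of thromboxane in platelets, fell from 121 and 95 to 37 and 46 counts (log2 fold change -1.38, edgeR adjusted p = 0.0019) and RAB27A, which serves dense granule release, from 1194 and 1197 to 943 and 1029 counts (-0.29, adjusted p = 0.0064), and both kept the call with each library left out. BTK (-0.30, adjusted p = 0.0115) lost its call without untreated library 1 (0.0739), and LYN (0.24, adjusted p = 0.0185) in 3 of the 4 fits (at most 0.0927).

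**Figure D4:**
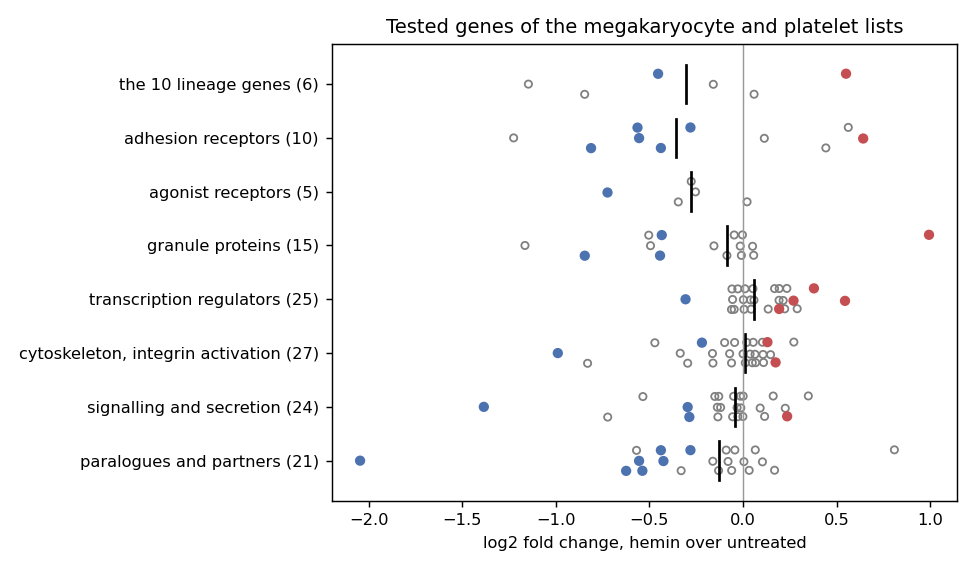
Log2 fold change of hemin over untreated for each tested gene (points) of the 10 lineage genes, the 6 megakaryocyte and platelet lists and the paralogues and partners, with the number tested in brackets and a black bar at the median. Filled points passed an edgeR adjusted p of 0.05 (red higher, blue lower), and the medians run from -0.36 for adhesion receptors to 0.06 for transcription regulators.

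Markers of other blood and stromal cells were low and summed to less in the treated libraries. The 9 monocyte and macrophage markers summed to 12.21 to 12.24 TPM untreated and 6.6 to 9.08 TPM treated, with MPO and S100A9 at 0. The 8 lymphocyte markers summed to 3.12 to 3.82 and 0.54 to 2.39 TPM, with CD2, CD3E and MS4A1 at 0. The 9 fibroblast and endothelial markers summed to 6.59 to 8.93 and 5.27 to 5.73 TPM, with CDH5 and KDR at 0. None of the 4 markers that could be tested, CD68, ITGAM, COL1A2 and COL3A1, passed, and their part in the results was not tested.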

How the data were processed

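Poly(A) RNA of 2 untreated and 2 hemin-treated K562 samples was sequenced with 50-base reads. Per the labels, the submitters' tools include Trimmomatic 0.39, RSEM 1.3.1 and STAR 2.7.5c on GRCh38, and the methods name the Ensembl 106 annotation. The deposited expected counts are raw gene-level estimates from RSEM, in which a read that maps to several genes is split among them. The authors' TPM values are scaled by effective length, and the deposited lengths are averaged over a gene's transcripts. The deposited bounds of TPM, a score here, were not reported, and the FPKM tables were not used. The methods list no strand option for RSEM and do not state whether the counting used strand.

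Expected counts were rounded, filtered by filterByExpr, scaled by TMM and tested over 14458 genes with edgeR 4.0.16 in R 4.3.3 (quasi-likelihood test, condition alone, Benjamini-Hochberg adjustment, threshold 0.05). The fit was first tested on simulated data. Alternatives were RLE factors, library size alone, DESeq2 1.42.0, other count filters, a replicate block, each library left out, posterior mean counts and limma 3.58.1 on log2(TPM + 1) or log2(TPM + 0.1). The gene annotation for positions and exon overlap was GENCODE 44, which holds 99.8% of the gene IDs. Pooled counts carry exact 95% binomial intervals for counting error only. The same replicate number in both conditions was not taken as a pair, since the labels name no shared culture.

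The 10 genes and all lists were chosen with earlier results of these data known. Named from each list were up to 3 called genes with the largest change in each direction and the 2 with the highest mean TPM, plus every paralogue or partner with at least 10 TPM. LYL1, RUNX2, RUNX3, ERG, ETS1, ETV6, GP5, GP6, THBS3, PLEK2 and the lineage and other markers listed at 0 were named after their values were seen. Some genes of the lists are counted in the totals but not reported here by name.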

Additional observations from a re-analysis of the deposited data

How the results depend on the processing

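RUNX1 was called higher in 12 of 14 alternatives and THBS1 lower in 11 of 14. In limma on log2(TPM + 1) and log2(TPM + 0.1) RUNX1 was 0.35 and 0.36 without a call, and THBS1 turned to 0.28 and 0.31. Those fits called 14 and 15 genes higher and 33 and 34 lower, with 0 of the 10 lineage genes and 0 pathway genes in either direction. DESeq2 called 602 genes higher and 484 lower, with 0 lineage genes lower, since THBS1 (-0.44) then had an adjusted p of 0.0528. Of the lineage genes, 3 were lower without the count filter (THBS1, TUBB1 and ITGB3) and 2 with a stricter minimum of 20 counts or with posterior mean counts (THBS1 and TUBB1). With a library left out, between 469 and 934 genes were called higher and between 512 and 884 lower, 1 lineage gene in each direction, and 2 to 8 pathway genes higher. Then GP1BA ranged from -0.75 to 0.28, turning sign without untreated 1 (0.12) or hemin 2, and CD9 from -0.30 (without untreated 1) to 0.53. Under a replicate block 855 genes were higher and 886 lower, and it changed no call among the lineage genes. Deviations of same-numbered libraries correlated at 0.0047. Summing each gene with its exon-overlapping neighbours, added after the data were seen, changed no call. ITGA2B had no value under the stricter filter and no adjusted p in DESeq2. The causes of these changes were not tested. At this depth PLEK and ITGB3 did not pass the main count filter, and GP9 and FLI1 had no counts.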
